A study of Mus musculus with 6 samples.

Results

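The genes described here encode enzymes of the tricarboxylic acid (TCA) cycle, the pyruvate dehydrogenase complex (PDH) that feeds it, and subunits of complexes I, III, IV and V of the respiratory chain. The list was set by function and held 52 genes; 46 of them lie on sequence covered by the deposited peak list, out of 15771 protein-coding genes on that sequence. These 46 are 14 TCA cycle and PDH genes and 32 respiratory chain genes. Ndufa3, Ndufa9, Ndufb7, Uqcrc2, Cox5a and Cox7a2 were not analysed here. The assay was MBD-seq, in which the protein MBD2 pulls down methylated DNA for sequencing. It was run on primary chondrocytes, the cartilage cells, from knee articular cartilage of mice at postnatal day 3 to 5. Control samples (n = 3) are labelled "Dnmt1 flox", and conditional knockout (cKO) samples (n = 3) Prx1-Cre;Dnmt1 flox/flox. Prx1-Cre is known to act in limb mesenchyme; where it acted in these mice was not analysed here. Dnmt1 copies CpG methylation to newly made DNA strands. By these labels both groups carry the floxed allele.

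One list of 84111 peaks was analysed, called on 3 merged datasets; the peak names do not say to which group these belong. It gives no value for any of the 6 samples, so control and cKO cannot be compared from it, no spread between samples can be given, and sequencing depth is not known. The name of the deposited list describes its regions as methylated through Dnmt1. A gene was counted as having a peak when a peak midpoint lay in its body or within 1 kb of either end. All counts below describe this list and carry no test.

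The TCA cycle oxidises acetyl groups in the mitochondrial matrix and hands the electrons to complexes I and II. Complexes III and IV pass them on to oxygen, and complex V, the ATP synthase, uses the resulting proton gradient to make ATP. Growth cartilage has little blood supply, and its chondrocytes are known for a high rate of glycolysis. The title of the series names energy metabolism of growth plate chondrocytes.

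The promoters of these genes were rich in CpG, the dinucleotide that MBD2 reads when it is methylated, and none of those examined overlapped a peak. RefSeq promoter windows (GRCm38.p6), each 300 bases long from 250 before the start of transcription, were matched for 37 of the 46 genes. The genes without an entry were Sdhc, Ndufa2, Ndufb9, Ndufs1, Uqcrb, Uqcrq, Cyc1, Cox6c and Atp5a1. The windows held 12 to 39 CpG, with a median of 19.0, against a median of 15.0 over 12547 protein-coding genes. A peak overlapped the promoter window of 0 of the 37 genes. Over all protein-coding genes the share was 3.43%, and it was 2.01% among the 7082 genes whose window held at least 12 CpG, the lowest number among the 37. It was 5.27% among genes with fewer CpG. With 37 genes, a count of 0 is close to the first 2 of these shares. It also does not say that the promoters are unmethylated in either group, since the list holds enriched regions and no coverage.

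The following promoter windows are shown because they span what was seen: Sdhb has, with Fh1, the most peaks and none near its start, Ndufb2 has the peak closest to a start, Ndufv2 has the most CpG, and Ndufs4 is the longest gene without a peak. Capitals mark each CpG. The windows are chr4:140961021-140961320 on the plus strand (Sdhb, 15 CpG), chr6:39592315-39592614 on the plus strand (Ndufb2, 14 CpG), chr17:66101510-66101809 on the minus strand (Ndufv2, 39 CpG) and chr13:114388045-114388344 on the minus strand (Ndufs4, 12 CpG).
Sdhb: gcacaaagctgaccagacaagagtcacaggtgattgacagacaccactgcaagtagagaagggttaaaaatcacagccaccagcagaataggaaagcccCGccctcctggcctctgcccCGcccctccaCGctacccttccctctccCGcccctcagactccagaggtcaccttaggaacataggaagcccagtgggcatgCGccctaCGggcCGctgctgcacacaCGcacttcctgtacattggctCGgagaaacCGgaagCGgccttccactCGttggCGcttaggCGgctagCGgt
Ndufb2: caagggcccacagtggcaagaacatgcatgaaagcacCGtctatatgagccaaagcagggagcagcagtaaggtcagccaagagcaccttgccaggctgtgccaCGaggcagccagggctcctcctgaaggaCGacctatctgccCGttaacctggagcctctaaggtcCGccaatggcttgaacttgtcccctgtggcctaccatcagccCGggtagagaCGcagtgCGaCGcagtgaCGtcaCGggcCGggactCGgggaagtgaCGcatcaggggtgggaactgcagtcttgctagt
Ndufv2: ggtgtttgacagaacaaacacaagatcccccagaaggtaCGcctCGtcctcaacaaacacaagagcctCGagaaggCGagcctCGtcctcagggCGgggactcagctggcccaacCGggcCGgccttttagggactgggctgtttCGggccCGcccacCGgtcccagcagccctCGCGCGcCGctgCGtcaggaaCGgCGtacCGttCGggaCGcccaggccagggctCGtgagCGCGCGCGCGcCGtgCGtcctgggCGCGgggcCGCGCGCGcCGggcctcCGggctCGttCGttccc
Ndufs4: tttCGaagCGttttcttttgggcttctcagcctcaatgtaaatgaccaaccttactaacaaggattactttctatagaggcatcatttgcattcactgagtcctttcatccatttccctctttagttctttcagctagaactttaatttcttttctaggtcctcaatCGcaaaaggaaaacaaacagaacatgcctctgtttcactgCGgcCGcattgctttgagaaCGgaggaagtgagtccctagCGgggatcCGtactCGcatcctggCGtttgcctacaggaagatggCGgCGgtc

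In all 4 sequences the CpG gather toward the start of transcription. The last 100 bases hold 11 at Sdhb, 9 at Ndufb2, 21 at Ndufv2 and 9 at Ndufs4. The window of Ndufs4 has a GC content of 45.3%, against a median of 59.7% for the 37 genes. Motifs of factors known for driving respiratory chain genes were searched on both strands. The centre of the palindrome of nuclear respiratory factor 1, CGCATGCG, which contains CpG, was found in 2 windows, those of Cox6a1 and Ndufa8 (5.41%, against 2.54% of all 12547 promoter windows). The ETS core CCGGAAG, as bound by GABP, was found in 8 windows (21.6%, against 12.4% of all), those of Atp5e, Cox6a1, Cox8a, Dlst, Idh3b, Ndufs3, Ndufs8 and Sdhb. These are matches of letters, and no peak overlapped any of them.

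**Figure D1:**
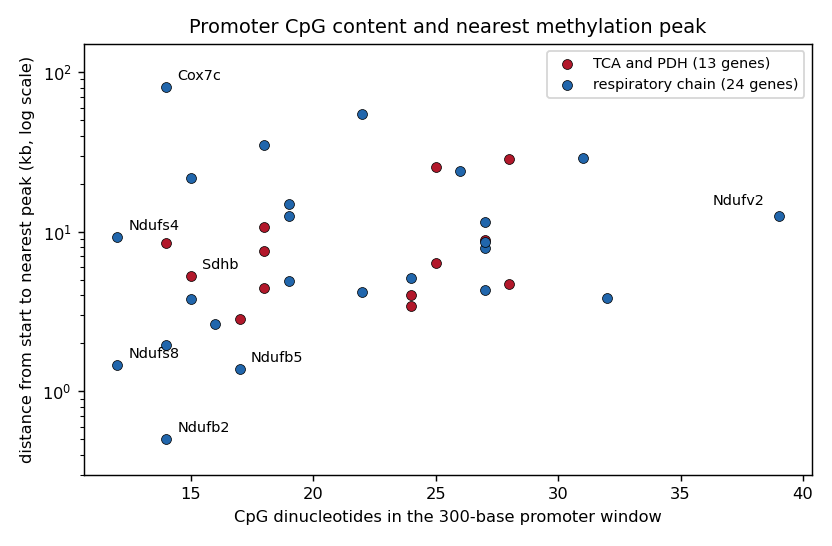
Number of CpG in the promoter window (x axis) and distance in kb, on a log axis, from the start of transcription to the nearest peak (y axis) for the 37 genes with a promoter entry; each point is a gene. Ndufb2 lies lowest, with a peak 0.501 kb from its start, and Cox7c highest, at 80.7 kb.

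The distance from the start of transcription to the nearest peak ran from 0.501 kb at Ndufb2 to 80.7 kb at Cox7c, with a median of 7.53 kb. The genes with a peak closest to the start after Ndufb2 were Ndufb5 (1.38 kb), Ndufs8 (1.47 kb) and Atp5d (1.94 kb). Ndufv2, with the richest promoter, had its nearest peak 12.6 kb away.

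Of the 46 genes, 22 had at least 1 peak (47.8%), against 66.4% of all protein-coding genes. In 21 of them a peak lay in the gene body, which was the case in 64.7% of protein-coding genes. They held 43 peaks, 40 with the midpoint in the gene body and 3 outside it. TCA cycle and PDH genes had a peak in 11 of 14 cases (78.6%; 95% Wilson interval 52.4% to 92.4%). Respiratory chain genes had one in 11 of 32 (34.4%; 20.4% to 51.7%). These intervals cover counting error over genes only. The groups also differed in length, with a median of 23.8 kb for TCA cycle and PDH genes and of 6.57 kb for respiratory chain genes.

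Gene length was therefore taken into account by giving each gene the share of protein-coding genes with a peak in its length class, of 10 classes with equal gene numbers. This share rose from 18.3% in the shortest class to 98.1% in the longest. For the TCA cycle and PDH genes the classes gave 72.3%, or 10.1 genes, beside the 11 observed. For the respiratory chain genes they gave 51.7%, or 16.5 genes, beside the 11 observed. The difference between the groups was 44.2 percentage points before and 23.6 after this step. With the width of the interval for the plain difference (Newcombe's method, genes taken as independent), the second value would range from -7.79 to 43.2. With complex II counted in the TCA cycle group, as here, these numbers of genes thus do not separate it from 0.

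**Figure D2:**
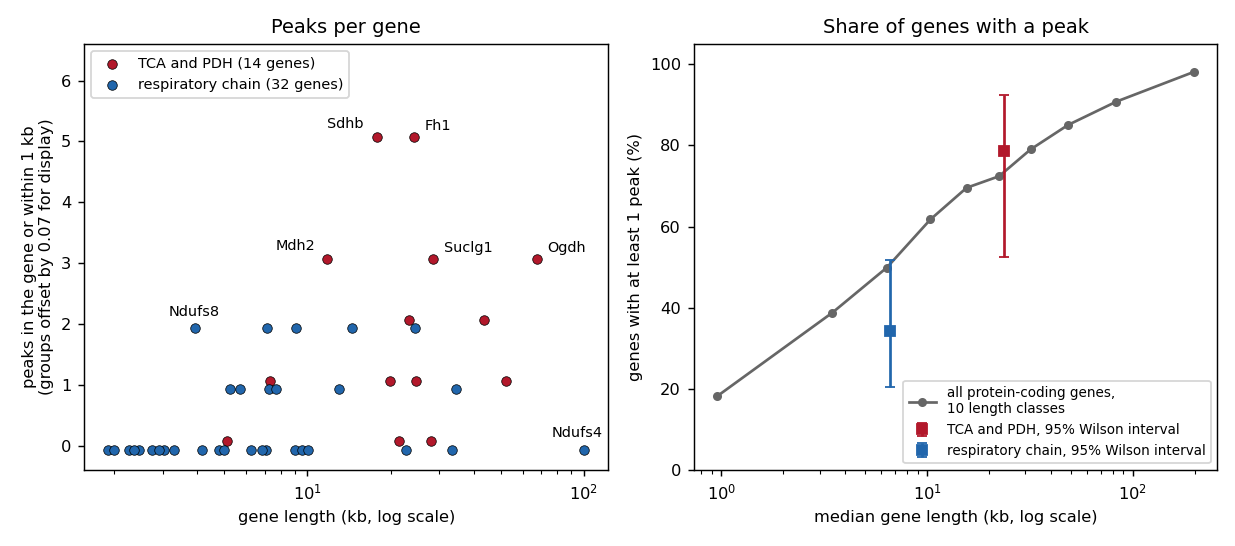
Left, peaks per gene against gene length in kb (log axis), each point a gene and the groups shifted slightly for display; right, share of genes with a peak for the 10 length classes of all protein-coding genes (grey) and for both groups at their median length, with 95% Wilson intervals. The TCA cycle and PDH genes (78.6%) sit close to the grey line at their length and the respiratory chain genes (34.4%) lie below it.

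Genes of like length were then set side by side. Between 10 and 36 kb (these bands were chosen after the values were seen), 7 of 9 TCA cycle and PDH genes had a peak and held 20 peaks (9.19 peaks per 100 kb, windows included). Of the 7 respiratory chain genes in this band, 4 had a peak and they held 6 (3.61 per 100 kb). All protein-coding genes of that band had 8.99 peaks per 100 kb, with 71.5% having a peak. Below 5 kb, where the list holds respiratory chain genes alone, 1 of 12 had a peak, Ndufs8, against 28.8% of all protein-coding genes of that length. From 5 to 10 kb the order of the densities was the other way round. The respiratory chain had a peak in 6 of 12 genes (7.27 peaks per 100 kb) and TCA cycle and PDH genes in 1 of 2 (6.08), against 53.0% of all (10.03). From 36 to 110 kb, TCA cycle and PDH genes had a peak in 3 of 3 (3.54 per 100 kb), the one respiratory chain gene, Ndufs4, had none, and 87.3% of all had one (6.81 per 100 kb). The higher density of TCA cycle and PDH genes between 10 and 36 kb was not seen from 5 to 10 kb. There their density rests on 1 peak in 2 genes, too few to order the groups. When each TCA cycle or PDH gene was set beside the respiratory chain gene nearest to it in length, it had more peaks in 8 of 14 cases, fewer in 3 and as many in 3. These 14 comparisons share 8 respiratory chain genes, and lengths differ by up to 1.53 times (Pdhx and Ndufa10).

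The enzymes of the TCA cycle were then described step by step. Cs, citrate synthase, had 1 peak, 13.6 kb into the gene, with a fold enrichment of 5.97 over the caller's background, the lowest among the 43. Idh3b, a subunit of isocitrate dehydrogenase, had none and was the shortest gene of the group (5.14 kb). Ogdh, the first enzyme of the 2-oxoglutarate dehydrogenase complex and the longest of the group (67.5 kb), had 3 peaks, with folds of 17.5, 6.38 and 10.2. The first of them lay 25.4 kb from the start. Dlst, the second enzyme of that complex, had 2 neighbouring peaks 12.1 and 13.0 kb from the start (folds 11.3 and 14.2). Dld, the dehydrogenase shared with PDH, had 1 peak with a fold of 18.7.

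Of the genes for succinyl-CoA synthetase, Suclg1 and Sucla2 were listed, and both had peaks. Suclg1, the alpha subunit, had 3 peaks with folds of 11.7, 44.4 and 8.82. The strongest, on chromosome 6 at 73263662 to 73264278, lay near the middle of the gene (54.4% of the way along it) and its fold exceeded that of 99.2% of all peaks. Sucla2 had 2, with folds of 11.7 and 15.9. Fh1, fumarase, had 5 peaks between 10.0 and 23.0 kb from its start and none in its first 10 kb. In order from the start their folds were 6.10, 21.8, 17.8, 16.6 and 8.55. The surroundings of Fh1 were poor in peaks, with 2.0 per 100 kb in the 100 kb on either side, against a median of 5.50 over protein-coding genes.

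Mdh2, malate dehydrogenase, had 3 peaks, all in the last part of the gene at 8.96, 9.74 and 11.1 kb of 11.7 kb. Their folds were 8.82, 7.19 and 23.7, so the strongest was the one nearest the 3′ end. In PDH, Pdhb, a subunit of its first enzyme, had 1 peak with a fold of 7.46. Pdhx, which anchors Dld in the complex, had 1 strong peak with a fold of 35.4, on chromosome 2 at 103021936 to 103022459. It lay 1.14 kb inside the 3′ end of a gene of 52.5 kb that held no other.

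Complex II, succinate dehydrogenase, belongs to both the cycle and the chain, and its 3 genes differed. Sdhb, the iron-sulfur subunit, had 5 peaks in 17.9 kb, while Sdha, which carries the flavin, and Sdhc, a membrane anchor, had none. In order from the start the Sdhb peaks lay at 5.56, 9.97, 11.6, 13.4 and 18.02 kb. Their folds were 26.0, 6.51, 36.9, 6.24 and 27.3, so 3 strong peaks alternated with 2 weak ones. Of protein-coding genes between 17 and 25 kb, 13.3% had at least 5 peaks, a group to which Sdhb and Fh1 belong. Unlike Fh1, Sdhb lay among many peaks, with 23.0 per 100 kb around it. Sdha and Sdhc are 27.99 and 21.5 kb long, and their nearest peaks were 6.35 and 9.33 kb away. Counting complex II with the respiratory chain raised the difference after the length step from 23.6 to 38.3 percentage points.

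In complex I, which takes electrons from NADH, 8 of 18 genes had a peak (44.4%; length classes 58.4%). Among the genes of its core, Ndufs7, an iron-sulfur subunit, had the strongest of all 43 peaks. It had a fold of 49.1 and a −log10 q of 478, on chromosome 10 at 80254603 to 80255261, 5.83 kb into a gene of 7.69 kb. Its fold exceeded that of 99.8% of the list. Ndufs8, another iron-sulfur subunit, had 2 peaks in only 3.91 kb, with folds of 16.3 and 18.7. Ndufv1, which binds the flavin that receives the electrons, had 1 peak with a fold of 18.4. The core subunits Ndufs1, Ndufs3 and Ndufv2 had none.

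Of the accessory subunits of complex I, Ndufb5 had 2 peaks and Ndufa8, Ndufa10, Ndufb2 and Ndufb9 had 1 each. Folds were 6.51 at Ndufa10, 6.65 at Ndufb9, 15.2 at Ndufb2 and 20.9 at Ndufa8, and at Ndufb5 they were 6.92 and 12.3. No peak was counted at Ndufa2, Ndufa5, Ndufa6, Ndufb3, Ndufb8, Ndufb10 or Ndufs4. Ndufs4, an accessory subunit needed for a stable complex, is the longest of the 46 genes (100.3 kb, chromosome 13 at 114287795 to 114388094). In its length class (62.1 to 115.4 kb), 90.8% of 1577 protein-coding genes had a peak. Among the 1888 protein-coding genes of at least its length, which reach 2271 kb, 2.6% had no peak either. The closest peak to Ndufs4 was 9.21 kb away, and its surroundings had 4.50 peaks per 100 kb.

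None of the 4 genes of complex III had a peak: Uqcrfs1, the Rieske iron-sulfur protein, Cyc1, cytochrome c1, and the small subunits Uqcrb and Uqcrq. None of the 5 genes of complex IV, cytochrome c oxidase, had one either: Cox5b, Cox6a1, Cox6c, Cox7c and Cox8a. These genes are short, with medians of 3.84 and 2.46 kb, and the length classes gave 1.66 and 1.64 genes with a peak. In complex V, 3 of 5 genes had a peak (length classes 2.73 genes), and each of them had 2. Atp5a1, the alpha subunit, had folds of 33.2 and 20.3, Atp5c1, the gamma subunit, 17.6 and 14.9, and Atp5d, the delta subunit, 13.2 and 7.33. Atp5b, the beta subunit, and Atp5e, the epsilon subunit, had none.

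**Figure D3:**
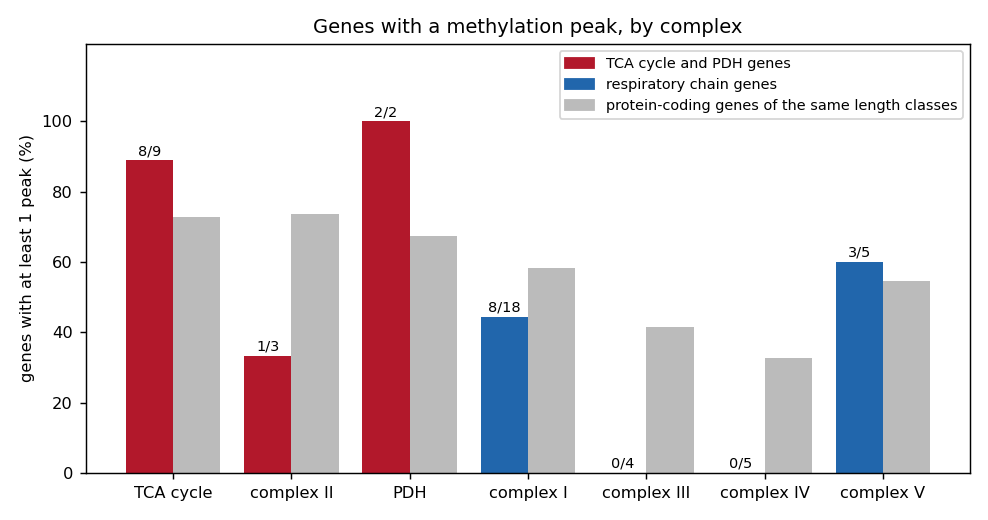
Share of genes with at least 1 peak (y axis, percent) in each part of the pathway (above the bar, genes with a peak and all genes), beside the share of protein-coding genes of the same length classes in grey. TCA cycle genes outside complex II (8 of 9), PDH (2 of 2) and complex V (3 of 5) stand above their grey bars, and complexes I (8 of 18), II (1 of 3), III (0 of 4) and IV (0 of 5) below theirs.

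Within the genes, peaks lay mostly in the middle and last parts, as they did in protein-coding genes generally. The strand was known for 37 genes, holding 40 of the 43 peaks. Of their 37 peaks in gene bodies, 5 lay in the first of 3 equal parts of the gene, 16 in the middle one and 16 in the last. The shares were 13.5%, 43.2% and 43.2%, against 21.4%, 32.9% and 45.7% of 20818 body peaks in protein-coding genes of 2 kb up to the length of Ndufs4. The median position was 60.2% along the gene, beside 62.6% for that reference. No peak midpoint lay in the first 1 kb of a gene body, and the first one inside a gene was 1.45 kb from the start, in Ndufb5.

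Of the 46 genes, 7 had a peak within 1 kb of an end (15.2%), against 21.8% of protein-coding genes. With 1 exception these peaks were at the 3′ end. Of the 37 genes with a known strand, 6 had a peak there (16.2%, against 16.9% of protein-coding genes), and 1 had one at the 5′ end (2.70%, against 6.72%). These shares are near those of all genes. At Sdhb the peak (chromosome 4, 140978945 to 140979631, fold 27.3) was 687 bp wide and its midpoint lay 90 bp beyond the end. At Ndufb5 it (chromosome 3, 32751593 to 32751960, fold 12.3) lay 217 bp beyond. The other 4 were inside the gene. The midpoint lay 184 bp from the end at Ndufa8 (chromosome 2, 36036312 to 36036705, fold 20.9) and 265 bp at Ndufs8 (chromosome 19, 3908905 to 3909351, fold 18.7). It lay 462 bp from the end at Atp5d (chromosome 10, 80145224 to 80145508, fold 7.33) and 669 bp at Mdh2 (chromosome 5, 135789478 to 135789957, fold 23.7).

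Ndufb2, an accessory subunit of complex I, had the 1 peak at a 5′ end (chromosome 6, 39591698 to 39592064, fold 15.2, 367 bp wide). Its midpoint was 684 bp upstream of the gene and it ended 501 bp before the start of transcription, outside the promoter window shown above. No other annotated gene contained the midpoint of any of these 7 peaks. Just outside the limit of 1 kb were the peaks of Pdhx at 1.14 kb and Fh1 at 1.29 kb from the 3′ end.

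**Figure D4:**
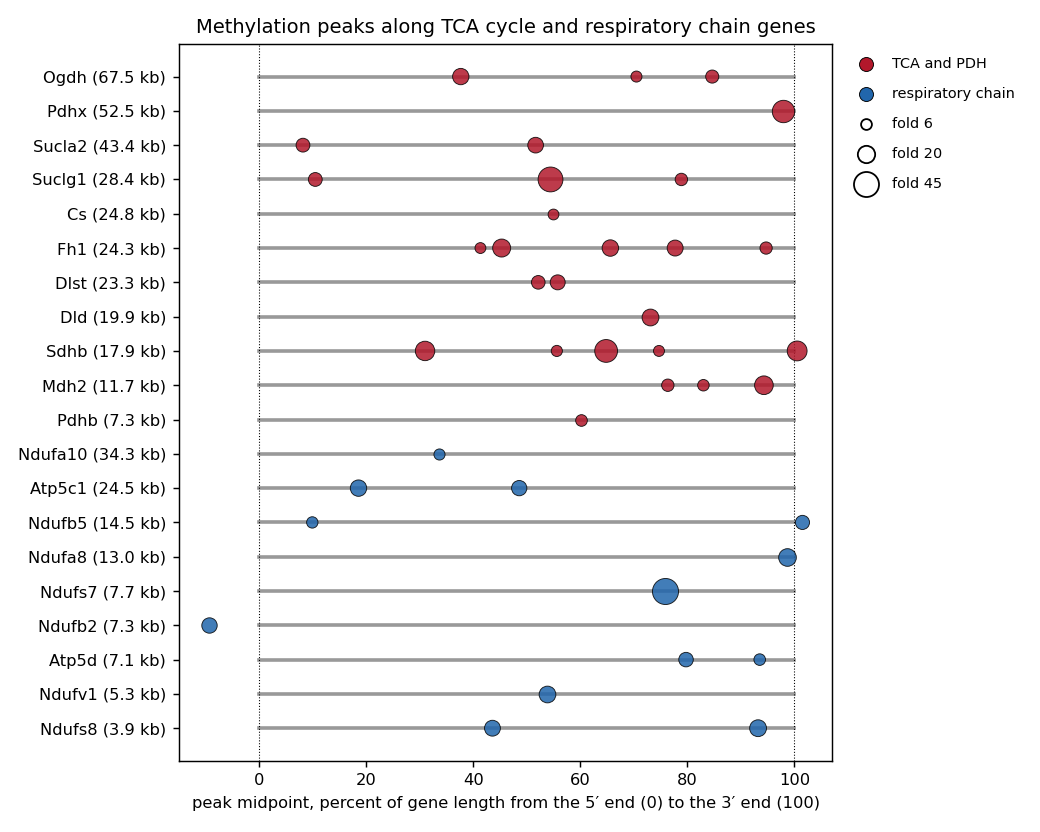
Midpoint of each peak along its gene, as percent of gene length from the 5′ end (0) to the 3′ end (100), for the 20 genes with a peak and a known strand; the area of a circle grows with the fold, and gene length is given beside the name. Apart from Ndufb2, whose peak lies upstream, the circles start at 8.23% (Sucla2) and gather in the middle and last parts.

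The strength of the 43 peaks covered most of the range seen in the list. The fold of the weakest exceeded that of 4.75% of all peaks and the fold of the strongest that of 99.8%. The median fold was 14.9 (quartiles 8.004 and 19.5), beside 13.7 (8.82 and 22.6) over 45189 peaks in or near protein-coding genes. Median folds were 11.7 over the 27 peaks of TCA cycle and PDH genes and 15.7 over the 16 of the respiratory chain, and the values of both groups overlapped, from 5.97 to 44.4 and from 6.51 to 49.1. Peaks were slightly narrower than in genes generally, with a median of 365 bp against 392 bp. The caller's background was the lowest of the list, 6.37 reads, in 41 of the 43 peaks (95.3%), against 85.2% of peaks in or near protein-coding genes and 75.0% of the list. There the fold follows from the pileup alone, so that the 49.1 at Ndufs7 stands for 361 reads and the 5.97 at Cs for 43. The exceptions were the first peak of Sdhb (6.69 reads) and the first of Atp5c1, where a pileup of 362 reads stood over 19.6.

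**Figure D5:**
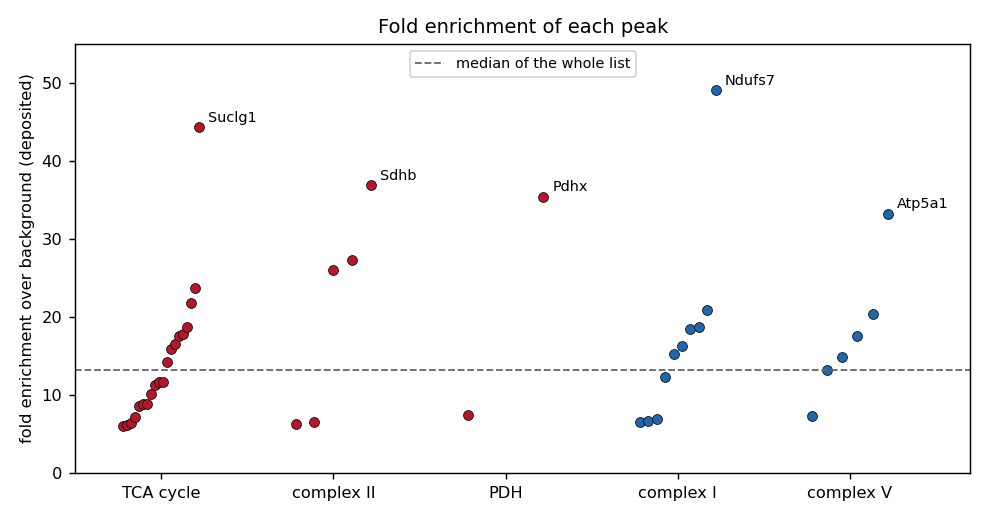
Deposited fold enrichment (y axis) of each of the 43 peaks by part of the pathway, sorted within each; the dashed line is the median of the whole list (13.2). Each part spans weak and strong peaks, and the strongest is at Ndufs7 (49.1).

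The 24 genes without a peak were not all in empty regions. Their nearest peak was between 2.39 kb (Idh3b) and 80.7 kb (Cox7c) away, with a median of 7.67 kb. Peaks in the 100 kb on either side had a median of 5.75 per 100 kb around genes without a peak and of 8.25 around genes with one, against 5.50 over protein-coding genes. The part of these surroundings in the counts was not tested.

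The other genes of the pathway were described from a list of 123, of which 90 lay on covered sequence. A peak was found in 52 of them (57.8%, length classes 61.4%). Among the other subunits of complex I it was 8 of 12 (66.7%, length classes 57.1%), above their length classes, where the genes described above lay below theirs. For complex IV it was 3 of 5 (60%, length classes 56.5%), close to its classes, where the genes described above had 0 of 5. The 3 were Cox7a2l, Cox7b2 and Cox8c. Ndufa4, without a peak, was counted with complex I, and counting it with complex IV instead would lower the complex IV share. The place of complex IV relative to its length classes therefore depends on this choice. Complex V had 3 of 10 (30%, length classes 45.4%), below its classes, where the 5 genes described above lay close to theirs (3 beside 2.73). Complex III had 0 of 3 (length classes 42.5%), below in both sets. Assembly factors had 23 of 38 (length classes 63.4%), and genes of the electron carriers cytochrome c and coenzyme Q 7 of 9 (length classes 68.5%). Together with the 32 genes above, 25 of 62 genes of complexes I, III, IV and V had a peak (40.3%, length classes 51.7%). Among the other TCA cycle and PDH genes, 8 of 13 had a peak (61.5%), below their length classes (73.5%). The 14 described above lay close to theirs (11 beside 10.1). The side of the length classes on which some parts lay thus differed between the genes described above and these others. The numbers of genes are small, and the differences were not tested. Most peaks, 16 in 55.7 kb, were counted in Aco1, the cytosolic aconitase, which was singled out after its values were seen.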

How the data were processed

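MBD-seq had been done on 6 cultures (3 control, 3 cKO). The authors deposited one peak list. Per the submitters' processing notes, fastp, Bowtie2 and MACS2 were used, with mm10 (GRCm38) as the build; roles and settings are not given in the sources used here. Per the peak names, 3 datasets were merged before calling. Each peak has a deposited fold (a ratio of its pileup to the background the caller set), a deposited −log10 p and −log10 q, and a deposited score that repeats the −log10 q times 10. The lowest −log10 q was 20.0, so weaker regions are not seen. 1 incomplete last line, on chromosome 6, was left out; genes on chromosomes 7, 8 and 9, on the rest of 6, and on X and Y are not analysed here. Every value of a peak is for the merged list, and no column belongs to a sample.

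Peak starts were counted from 1. Genes came from the RefSeq table of GRCm38.p6, and strand and promoter sequence from its promoter table, taking the entry nearest the gene's 5′ end; exons were not used here. Pileup and background were solved from the fold and the Poisson p, as MACS2 defines them, for whole pileups (99.97% of peaks matched within 1% of the step between whole pileups), and the solution was tested on simulated data. Python 3.11.15, pandas 2.3.3 and scipy 1.17.1 were used.

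The genes and lists were chosen with earlier results of these data known. Named genes were all 46, with values for peaks at gene ends, the 5 genes with most peaks, the 5 strongest and 5 weakest peaks and the longest gene without a peak. No test was run, because the list has no replicate values. The alternatives were other peak positions, windows, thresholds, backgrounds, length classes and a different place for complex II. The result of 1 gene of the wider pathway list is not reported here.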

Additional observations from a re-analysis of the deposited data

How the results depend on the processing

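No paired analysis was possible because one merged list carries nothing per sample, and no replicate could be left out. Of 14 alternatives, 13 kept the difference after the length step above 0 and within its interval (12.9 to 38.3 percentage points). Peaks above the lowest background alone turned it to -2.81: they gave 7.14% of TCA cycle and PDH genes, 3.13% of respiratory chain genes, a plain difference of 4.02 points and 0 genes with a peak at an end, since 2 of the 43 peaks are of that kind. A −log10 q of at least 100 gave 50% and 18.8%, with 4 genes at an end. The other alternatives kept these shares within their Wilson intervals, and the count at gene ends between 5 and 10; with gene bodies alone it has no value. The depth of the merged datasets is unknown, so a gene without a peak may hold methylation below the limit of the list.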

Other observations

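Some of the 46 genes are neighbours and do not count as independent of each other. Atp5d and Ndufs7 lie 103 kb apart on chromosome 10, with 16 peaks between them, and both had peaks. Ndufs8 and Ndufv1 lie 94.7 kb apart on chromosome 19, with 9 peaks between them, and both had peaks too. These 4 genes are among the 11 of the respiratory chain with a peak. Atp5b and Cs lie 247 kb apart on chromosome 10 with 34 peaks between them, and Atp5b had none and Cs 1.

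Pdha2, the form of the PDH alpha subunit made in the testis, differed from the 46 genes in the background of 1 of its 2 peaks. It is 2.35 kb long and had a peak at either end. The one at the 5′ end (chromosome 3, 141211080 to 141212001, 922 bp wide) had a fold of 6.57 over 52.1 background reads, and the one at the 3′ end a fold of 4.98 over 15.7. The highest background at a peak of the 46 genes was 19.6 reads, which lies between these values. Other genes of the wider list had peaks over still more background: Nubpl (up to 137 reads), Cox7b2 (112) and Sdhaf3 (up to 71.5). Cyct, the testis form of cytochrome c, had a peak at its 5′ end with a fold of 17.2 over the lowest background. The other genes with a peak within 1 kb of the 5′ end were Ndufa12 (fold 9.63), Cox7b2 (7.87) and Coa3 (16.7). At the 3′ end were Aco1, Ndufa11, Ndufb4, Ndufv3, Cox7a2l, Atp5j2, Atp5o, Atpif1, Sdhaf4, Surf1, Sco2, Cox10 and Cox14. Cox8c, Cox18 and Tmem70 had a peak at an end and no strand entry.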
